A study of Mus musculus with 12 samples.

Results

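Transcription factors that set the macrophage lineage were followed in mouse macrophages that had entered neuroblastoma spheres and in macrophages of the same cultures that had stayed outside them. The 9 factors, Spi1, Cebpa, Cebpb, Maf, Irf8, Irf5, Runx1, Klf4 and Batf3, were chosen by name, and each is represented by its brightest probe set, by the mean of 12 arrays, among the probe sets annotated to that symbol alone. They were 9 of 17097 genes with such a probe set, all 9 were among the 12488 genes tested, and each exceeded the filter level of 2.77 on the log2 scale on 12 of 12 arrays. Each group held 3 arrays, 1 from each of 3 independent experiments, with cells pooled over several wells. The groups were macrophages inside the spheres at 24 h, macrophages outside the spheres at 24 h, macrophages inside at 48 h and macrophages outside at 48 h. In all groups the macrophages had been grown from C57BL/6 bone marrow and were co-cultured with spheres of TT9423, a mouse neuroblastoma line that grows as spheres on agar. In-sphere cells were recovered by enzymatic digestion and magnetic selection for CD11b, whereas how the outside cells were prepared is not given in the sources. Times follow the sample labels, although a co-culture of 24 h is what the protocol describes even for the 48 h samples. TT9423 cells without macrophages were not analysed here.

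Macrophage identity is laid down by a small set of DNA-binding proteins that act together at shared enhancers. PU.1, the product of Spi1, opens chromatin at macrophage genes, C/EBPα and C/EBPβ bind beside it, and RUNX1 acts upstream of PU.1 in blood formation. IRF8 drives the monocyte branch and type 1 dendritic cells with BATF3, IRF5 promotes inflammatory cytokine genes, c-Maf restrains proliferation and promotes Il10, and KLF4 is needed for monocyte formation and takes part in alternative activation.

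Inside the spheres, Cebpa was lower and Klf4 higher at both times. Cebpb was lower at 24 h and Spi1 at 48 h. Maf, Irf8, Irf5, Runx1 and Batf3 did not pass the test at either time. A gene counted as called where limma's moderated test, adjusted by Benjamini-Hochberg over all 12488 genes, gave a p under 0.05. At 24 h, 3 of 9 factors were called, 1 higher and 2 lower, while 29.4% of all genes were called, 15.8% higher and 13.6% lower. At 48 h, again 3 of 9 were called, 1 higher and 2 lower, against a background of 37.5%, with 15.2% higher and 22.3% lower. The share of factors called was thus near the background at both times. The median in-sphere difference of the factors was -0.26 at 24 h and -0.14 at 48 h on the log2 scale, beside -0.0068 and -0.10 over all genes tested. The 3 in-sphere arrays did not overlap the 3 outside arrays for 3 of 9 factors at 24 h (43.4% of all genes) and for 5 of 9 at 48 h (51.6%). Without replicate 3 in spheres at 24 h, 5 of the 9 factors were called at that time, Spi1 and Maf being added.

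**Figure D1:**
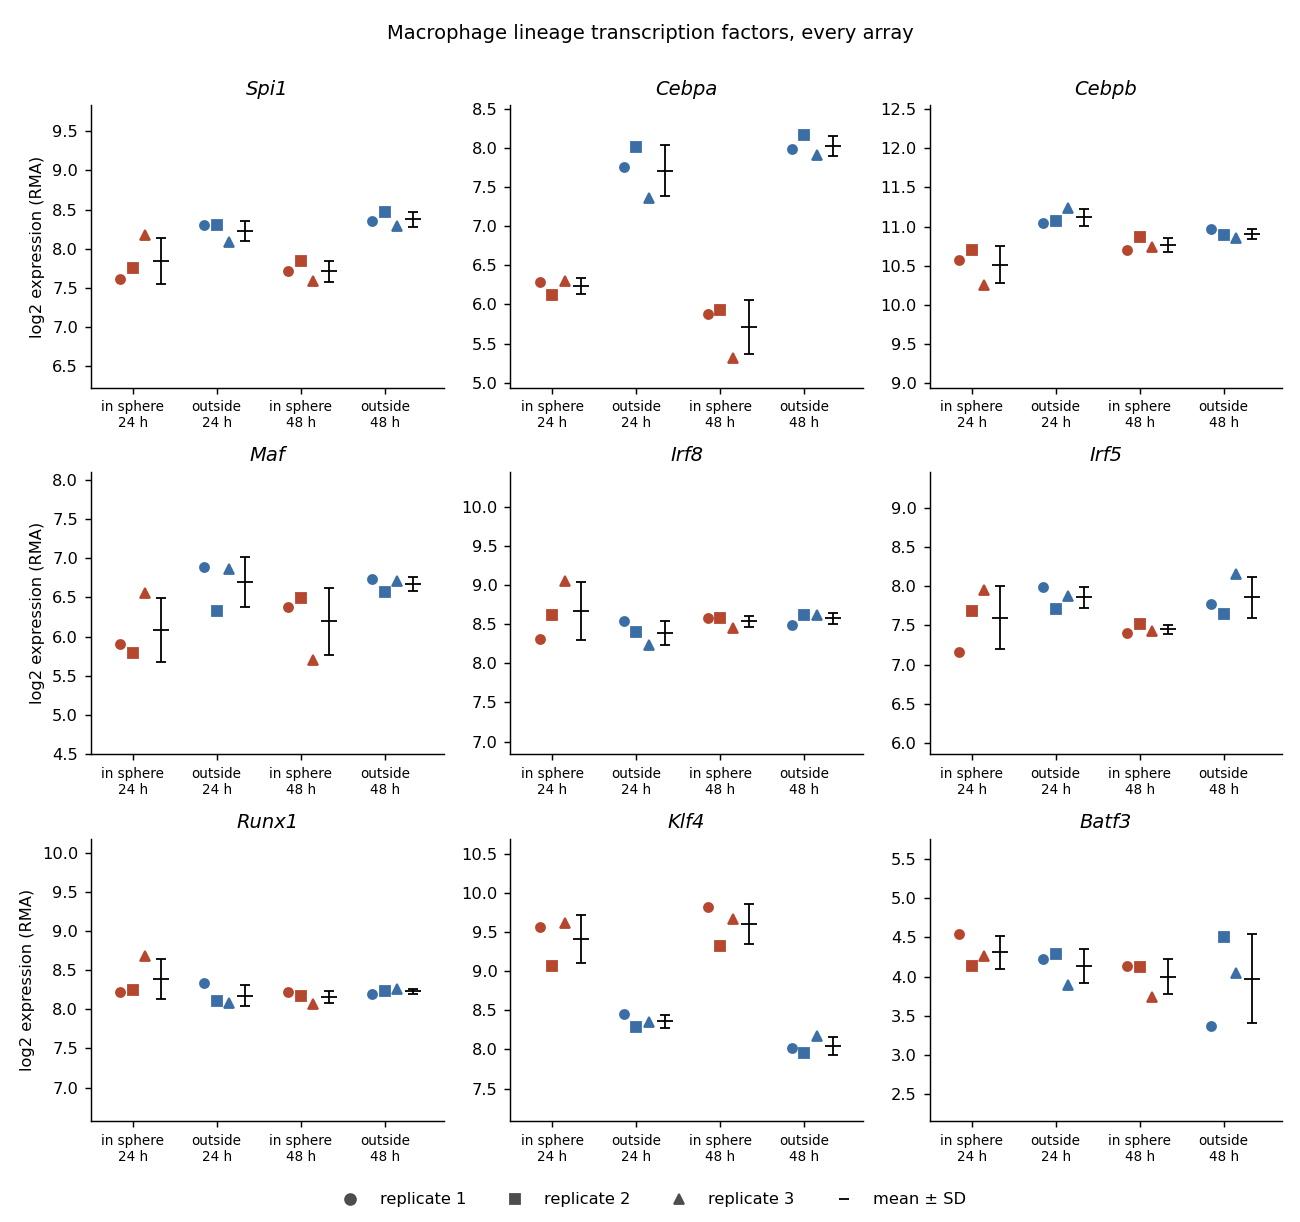
Log2 expression (RMA) of the 9 factors on each of the 12 arrays. Coloured symbols are arrays, with a shape for each replicate number, and black bars are the group mean ± SD (n = 3). Cebpa and Klf4 separate in-sphere from outside arrays at both times in opposite directions, whereas the Irf8, Runx1 and Batf3 points overlap at both times.

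One array stood apart. Replicate 3 in spheres at 48 h had a mean log2 value of 4.06, while the other 11 arrays lay between 4.20 and 4.22, and it received the lowest array weight, 0.235. Arrays correlated at 0.950 or higher. The 3 macrophage genes Csf1r, Itgam and Adgre1 were above the filter level on 12 of 12 arrays. The summed linear signal of 10 macrophage markers at 24 h was 23350 to 26458 in spheres and 22183 to 25823 outside. At 48 h it was 23746 to 25156 in spheres and 24564 to 26822 outside. Of these markers, 2 were higher and 3 lower at 24 h, and 3 were higher and 3 lower at 48 h. With 1 array left out, 2 to 3 were higher and 2 to 4 lower at 24 h. At 48 h, 2 to 3 were higher and 3 to 4 lower. Mertk was lower, with log2 differences of -0.91 ± 0.15 at 24 h and -1.25 ± 0.15 at 48 h. Msr1 was higher at both times. The summed signal of 11 granulocyte markers was 19593 to 27069 in spheres and 44002 to 52903 outside at 24 h, and 13625 to 21058 in spheres and 36559 to 49227 outside at 48 h, with 8 markers lower and 0 higher at 24 h and 8 lower and 1 higher (Prtn3) at 48 h. At 24 h, 3 were higher without replicate 1 in spheres, 2 without replicate 2 outside and 2 with the replicate block. Fibroblast and stromal markers (14 measured) summed to 2201 to 4324 in spheres and 857 to 1234 outside at 24 h, and to 3141 to 3215 in spheres and 839 to 1415 outside at 48 h. Of these, 7 were higher and 3 lower at 24 h and 8 were higher and 4 lower at 48 h, among them Col3a1, higher by a log2 difference of 2.64 ± 0.31 at 24 h, and Cdh11, with a difference of -3.36 ± 0.28 at 24 h. Of 18 neuroblastoma and neural markers measured, 12 were tested. Gap43 and Ncam1 were higher in spheres at both times and Elavl4 at 48 h, while Gata3, Chga, Tubb3, Alk and Nefl exceeded the filter level on 0 arrays. That list summed to 267 to 426 in spheres and 151 to 165 outside at 24 h, and to 285 to 351 in spheres and 130 to 139 outside at 48 h. The actin 3' minus 5' signal was 0.490, 0.350 and 0.604 in spheres and 0.307, 0.324 and 0.224 outside at 24 h on the log2 scale, without overlap, and the arrays overlapped at 48 h. The Gapdh 3' minus 5' signal was -0.12, 0.17 and 0.43 in spheres and 0.03, 0.17 and -0.04 outside at 24 h, with overlap. The part of these markers and of these ratios in the results on the factors was not tested. In such bulk samples, fewer cells of a type and less RNA per cell cannot be told apart.

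Cebpa encodes C/EBPα, which works with PU.1 at the branching of granulocytes and monocytes and is also kept on in macrophages. At 24 h its log2 level was 6.28, 6.12 and 6.30 in spheres (replicates 1 to 3) and 7.75, 8.01 and 7.36 outside. At 48 h it was 5.88, 5.93 and 5.32 in spheres and 7.99, 8.16 and 7.91 outside. All in-sphere arrays lay below all outside arrays, and the in-sphere member of each same-numbered pair was the lower in 3 of 3 pairs at either time. The in-sphere difference was -1.47 ± 0.19 (SE, n = 3 per group; 95% CI -1.88 to -1.06; adjusted p = 1.42e-04) at 24 h, a level 2.77-fold lower. At 48 h it was -2.31 ± 0.19 (95% CI -2.72 to -1.90; adjusted p = 4.02e-06), or 4.95-fold lower, and -2.11 without the array that stood apart. These were the largest absolute differences among the 9 factors at both times. Of the 11 granulocyte markers given above, 8 were lower in spheres at each time. Elane, Mpo and Prtn3 gave positive differences, called in the main fit only for Prtn3 at 48 h (2.15 ± 0.32). Granulocyte markers belong to cells that also express Cebpa, and their part in the Cebpa difference was not tested.

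Klf4 went the other way. KLF4 is a zinc finger factor that is needed for monocyte formation, and its gene is also active outside the blood lineages. Its log2 level at 24 h was 9.56, 9.06 and 9.61 in spheres and 8.45, 8.28 and 8.35 outside. At 48 h the values were 9.82, 9.33 and 9.66 in spheres and 8.02, 7.95 and 8.18 outside. Every in-sphere array exceeded every outside array of its time. The difference was 1.05 ± 0.17 (SE, n = 3 per group; 95% CI 0.69 to 1.41; adjusted p = 5.60e-04) at 24 h, or 2.07-fold higher, and 1.55 ± 0.17 (95% CI 1.19 to 1.91; adjusted p = 2.31e-05) at 48 h, or 2.94-fold higher, with 3 of 3 pairs higher at each time. Without the array that stood apart the 48 h difference was 1.52. The second Klf4 probe set gave 1.22 ± 0.18 at 24 h and 1.39 ± 0.18 at 48 h and was called at both times. The summed signals of stromal and neural markers were higher in spheres, though single markers of both lists were not, as given above, and their part in the Klf4 difference was not tested.

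The promoters of Cebpa and Klf4, whose levels moved in opposite directions, are shown from 250 bases before to 50 bases after the RefSeq start (GRCm38.p6), on the strand of the gene. The Cebpa window is chr7:35119043-35119342 on the plus strand and the Klf4 window is chr4:55532426-55532725 on the minus strand.
Cebpa promoter: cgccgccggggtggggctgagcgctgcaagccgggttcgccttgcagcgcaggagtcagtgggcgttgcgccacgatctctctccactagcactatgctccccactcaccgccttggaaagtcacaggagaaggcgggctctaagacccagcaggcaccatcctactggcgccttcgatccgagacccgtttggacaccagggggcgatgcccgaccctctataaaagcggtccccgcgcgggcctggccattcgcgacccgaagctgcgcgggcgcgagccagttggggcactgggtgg
Klf4 promoter: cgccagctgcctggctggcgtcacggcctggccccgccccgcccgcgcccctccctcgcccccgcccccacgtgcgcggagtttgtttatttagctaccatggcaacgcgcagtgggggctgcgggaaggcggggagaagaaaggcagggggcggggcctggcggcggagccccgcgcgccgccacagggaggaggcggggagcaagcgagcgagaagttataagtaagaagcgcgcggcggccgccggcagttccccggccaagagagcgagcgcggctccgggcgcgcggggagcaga
A set of 6 motifs was searched on both strands in the windows that RefSeq gave for 7 of the 9 factors, 9 windows in all. They were the PU.1 core GAGGAA, the C/EBP motif TTGCNNAA, the IRF motif GAAANNGAA, the RUNX motif TGTGGT, the KLF motif GGGNGTGG and the AP-1 motif TGANTCA. No match to these letters was found in the Cebpa or Klf4 window. Among 32851 mouse promoters of this length, the PU.1 core was present in 28.3%, the C/EBP motif in 10.8%, the IRF motif in 8.56%, the RUNX motif in 16.8%, the KLF motif in 17.6% and the AP-1 motif in 7.81%. A match is a description of letters and not of a bound site.

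Cebpb encodes C/EBPβ, which is induced in inflammation and supports macrophage activation. At 24 h its log2 level was 10.58, 10.70 and 10.25 in spheres and 11.04, 11.07 and 11.24 outside, with no overlap. At 48 h it was 10.70, 10.86 and 10.73 in spheres and 10.97, 10.89 and 10.85 outside, where the lowest outside array lay just below the highest in-sphere one. Cebpb was lower in spheres at 24 h, with a log2 difference of -0.61 ± 0.13 (SE, n = 3 per group; 95% CI -0.89 to -0.33; adjusted p = 0.00382). The 48 h difference of -0.14 ± 0.13 (95% CI -0.42 to 0.14; adjusted p = 0.437) did not pass. The change of the difference between the times, 0.47 ± 0.18, had an adjusted p of 0.328, so the times were not shown to differ. Of the other Cebpb probe sets, the second was lower at 24 h (-0.74 ± 0.17, adjusted p = 0.00783), while the third, the dimmest and the most variable, gave -0.76 ± 0.29 (adjusted p = 0.0730). Taking the most variable probe set of each gene ended the Cebpb call at 24 h (adjusted p = 0.0681).

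Its promoter, chr2:167688665-167688964 on the plus strand, is printed because it was the only window of the 7 factors with a match to the KLF motif. The match, in capitals, is on the strand opposite the gene, at -95 to -88 relative to the start, and the window has a GC content of 80.7%.
Cebpb promoter: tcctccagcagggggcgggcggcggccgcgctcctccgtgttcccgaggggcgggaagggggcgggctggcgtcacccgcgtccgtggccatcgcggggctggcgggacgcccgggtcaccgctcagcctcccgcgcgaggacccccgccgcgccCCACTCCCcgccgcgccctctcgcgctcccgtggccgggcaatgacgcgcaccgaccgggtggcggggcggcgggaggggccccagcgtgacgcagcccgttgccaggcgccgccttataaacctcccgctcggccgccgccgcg

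Spi1 encodes PU.1, the ETS factor on which macrophage gene expression depends. At 24 h its log2 level was 7.61, 7.75 and 8.17 in spheres and 8.30, 8.31 and 8.08 outside, and replicate 3 in spheres overlapped the outside arrays. At 48 h the values were 7.71, 7.85 and 7.58 in spheres and 8.35, 8.47 and 8.29 outside, without overlap. The 24 h difference of -0.38 ± 0.15 (SE, n = 3 per group; 95% CI -0.71 to -0.059) had an adjusted p of 0.0732. It was called with array weights (-0.45, adjusted p = 0.00776) and without replicate 3 in spheres at 24 h (-0.55, adjusted p = 0.00967). Over all alternatives the adjusted p ran from 0.00776 to 0.241. At 48 h Spi1 was 1.58-fold lower in spheres, with a log2 difference of -0.66 ± 0.15 (95% CI -0.99 to -0.34; adjusted p = 0.00419), which was -0.60 without the array that stood apart.

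Maf encodes c-Maf, a large MAF factor of resident macrophages. Its log2 level at 24 h was 5.91, 5.79 and 6.55 in spheres and 6.89, 6.32 and 6.87 outside. At 48 h the values were 6.38, 6.50 and 5.71 in spheres and 6.73, 6.57 and 6.71 outside. The 24 h arrays overlapped through replicate 3 in spheres and replicate 2 outside, and the 48 h arrays did not overlap. The difference was -0.61 ± 0.24 (SE, n = 3 per group; 95% CI -1.14 to -0.081; adjusted p = 0.0800) at 24 h and -0.48 ± 0.24 (95% CI -1.01 to 0.051; adjusted p = 0.145) at 48 h, with 3 of 3 pairs lower at each time. The 24 h call was made without replicate 3 in spheres at 24 h (-0.84, adjusted p = 0.0205), without replicate 2 outside at 24 h (-0.80, adjusted p = 0.0415) and without replicate 3 in spheres at 48 h (-0.61, adjusted p = 0.0390). Array weights (-0.84, adjusted p = 0.00301) and a repeated quantile normalisation (-0.66, adjusted p = 0.0303) also led to a call, and over all alternatives the adjusted p lay between 0.00301 and 0.246.

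The 2 interferon regulatory factors did not pass at either time. Irf8 had log2 levels of 8.32, 8.62 and 9.05 in spheres and 8.53, 8.40 and 8.23 outside at 24 h. Its levels at 48 h were 8.58, 8.58 and 8.45 in spheres and 8.49, 8.62 and 8.62 outside. Both sets of arrays overlapped. The Irf8 difference was 0.27 ± 0.16 (SE, n = 3 per group; 95% CI -0.082 to 0.63; adjusted p = 0.244) at 24 h and -0.04 ± 0.16 (95% CI -0.40 to 0.32; adjusted p = 0.875) at 48 h. Without replicate 1 in spheres at 24 h, the lowest of the in-sphere arrays of that time, the 24 h difference was 0.45 with an adjusted p of 0.0487, and over all alternatives the adjusted p lay between that value and 0.726. The second Irf8 probe set gave 0.14 ± 0.15 and -0.05 ± 0.15.

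Irf5, whose product promotes inflammatory cytokine genes, had log2 levels of 7.16, 7.69 and 7.95 in spheres and 7.99, 7.72 and 7.87 outside at 24 h. At 48 h its levels were 7.41, 7.52 and 7.43 in spheres and 7.78, 7.65 and 8.15 outside, without overlap. The Irf5 difference was -0.26 ± 0.19 (SE, n = 3 per group; 95% CI -0.67 to 0.15; adjusted p = 0.353) at 24 h and -0.41 ± 0.19 (95% CI -0.82 to 0.0062; adjusted p = 0.114) at 48 h. The 48 h difference was called with array weights (-0.47, adjusted p = 0.0196) and without replicate 1 in spheres at 24 h (-0.41, adjusted p = 0.0442), and over all alternatives the adjusted p ran from 0.0196 to 0.367.

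Batf3 encodes an AP-1 factor on which type 1 conventional dendritic cells depend. Its log2 level was 4.54, 4.13 and 4.26 in spheres and 4.22, 4.29 and 3.89 outside at 24 h. At 48 h it was 4.13, 4.12 and 3.74 in spheres and 3.37, 4.50 and 4.05 outside. The arrays overlapped at both times. The difference was 0.17 ± 0.24 (SE, n = 3 per group; 95% CI -0.35 to 0.70; adjusted p = 0.656) at 24 h and 0.02 ± 0.24 (95% CI -0.51 to 0.55; adjusted p = 0.955) at 48 h.

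**Figure D2:**
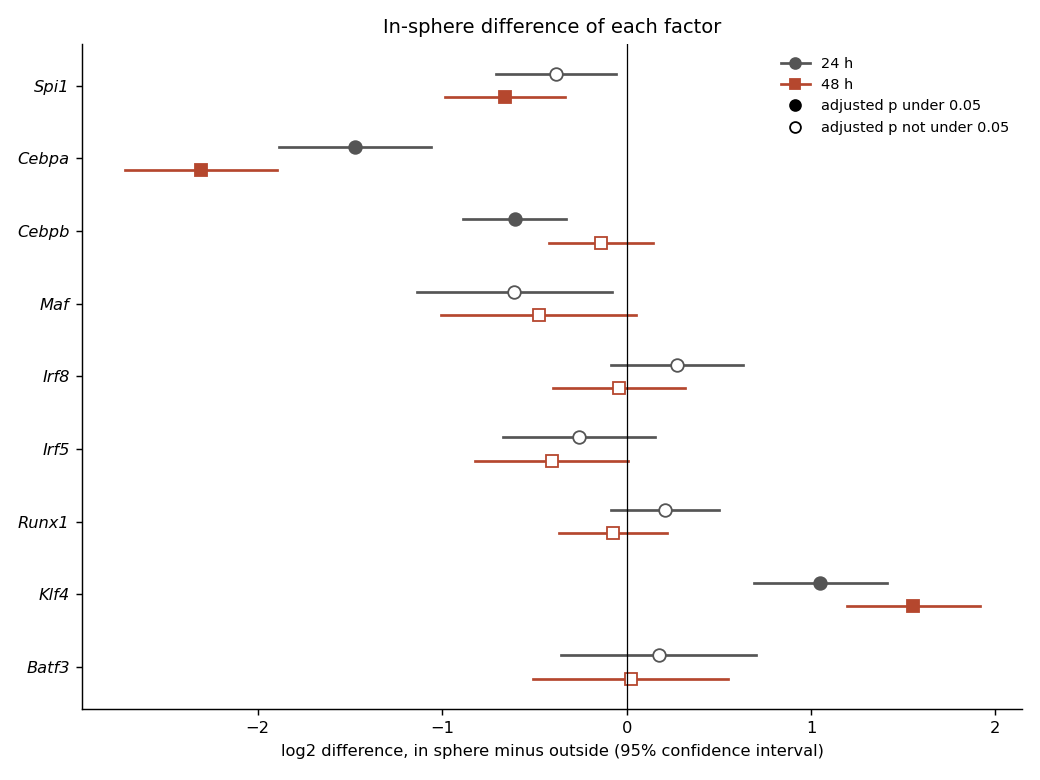
In-sphere minus outside difference of each factor (log2) at 24 h and 48 h, with circles for 24 h, squares for 48 h, filled where the adjusted p was under 0.05, and bars for the 95% confidence interval (n = 3 arrays per group). Cebpa lies farthest below 0 and Klf4 farthest above it at both times, and the Batf3 intervals include 0.

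Runx1 depended on the probe set. RUNX1 binds DNA with CBFβ and acts before and beside PU.1. The probe set used, the brightest of 6, gave log2 levels of 8.22, 8.25 and 8.68 in spheres and 8.33, 8.11 and 8.09 outside at 24 h. Its levels at 48 h were 8.22, 8.17 and 8.07 in spheres and 8.19, 8.24 and 8.25 outside. The arrays overlapped at both times, and the difference was 0.21 ± 0.13 (SE, n = 3 per group; 95% CI -0.086 to 0.50; adjusted p = 0.290) at 24 h and -0.07 ± 0.13 (95% CI -0.37 to 0.22; adjusted p = 0.705) at 48 h. At 48 h, however, 3 of the 6 probe sets were lower in spheres, with log2 differences of -0.56 ± 0.18 (adjusted p = 0.0296), -0.83 ± 0.15 (adjusted p = 0.00100) and -0.91 ± 0.22 (adjusted p = 0.00692). The other two not used here for the gene gave -0.03 ± 0.22 and -0.41 ± 0.19 (adjusted p = 0.122). None of the 6 was called at 24 h. The mean of the probe sets of each gene gave a Runx1 difference of -0.47 (adjusted p = 0.0188) at 48 h, and the most variable probe set gave -0.91 (adjusted p = 0.00657). Whether the probe sets differ from each other was not tested, and the transcripts they report were not determined here.

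**Figure D3:**
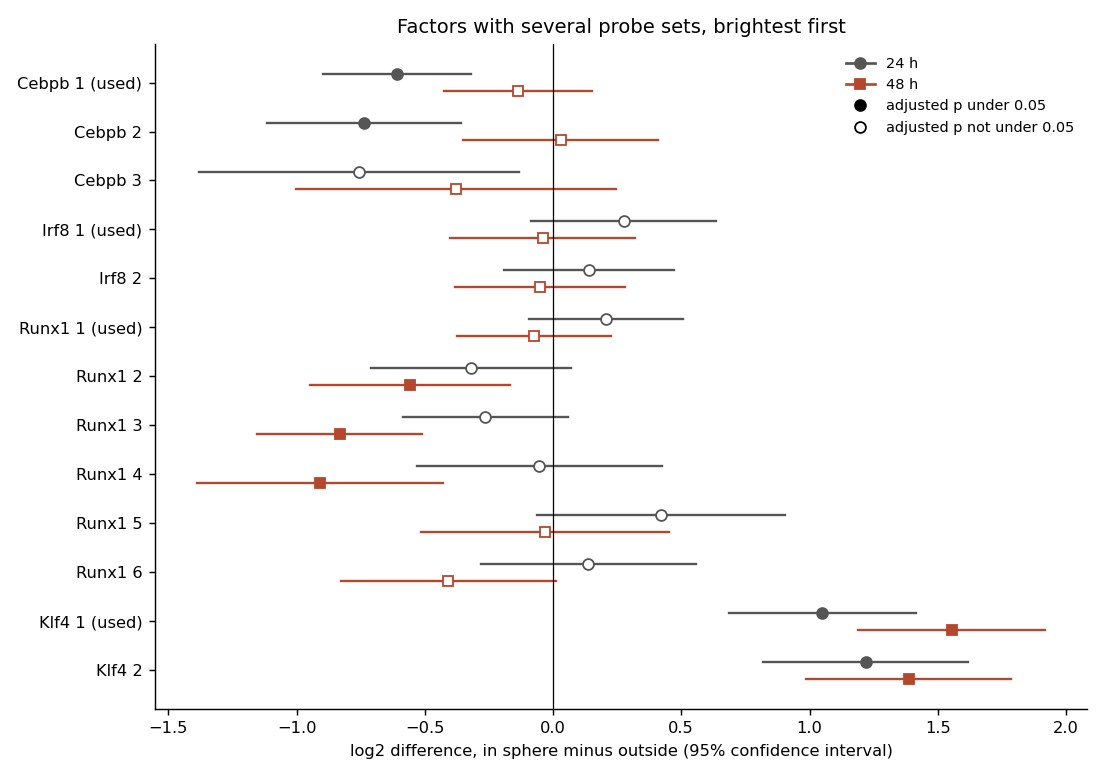
In-sphere minus outside difference (log2) for each probe set of the 4 factors that have several, at 24 h and 48 h, with bars for the 95% confidence interval and filled symbols where the adjusted p was under 0.05. Both Klf4 probe sets lie above 0 at both times, while the 6 Runx1 probe sets spread from -0.91 to -0.03 at 48 h.

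RefSeq gives Runx1 windows at 2 starts, both on the minus strand of the genome, the strand of the gene, and both are printed because the probe sets of Runx1 differed in their calls. The window at chr16:92697280-92697579 holds the PU.1 core on the strand opposite the gene, at -46 to -41. The window at chr16:92826025-92826324, upstream of it on the gene's strand, holds the RUNX motif on the strand opposite the gene, at 29 to 34 and at 37 to 42. Capitals mark the matches as they read on the printed strand, and positions count from the start.
Runx1 promoter, downstream start: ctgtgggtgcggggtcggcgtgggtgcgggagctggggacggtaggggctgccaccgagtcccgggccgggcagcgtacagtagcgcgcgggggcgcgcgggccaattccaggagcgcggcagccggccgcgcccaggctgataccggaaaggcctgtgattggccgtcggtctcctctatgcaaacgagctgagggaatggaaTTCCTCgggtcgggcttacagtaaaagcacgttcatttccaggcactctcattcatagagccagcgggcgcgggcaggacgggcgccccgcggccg
Runx1 promoter, upstream start: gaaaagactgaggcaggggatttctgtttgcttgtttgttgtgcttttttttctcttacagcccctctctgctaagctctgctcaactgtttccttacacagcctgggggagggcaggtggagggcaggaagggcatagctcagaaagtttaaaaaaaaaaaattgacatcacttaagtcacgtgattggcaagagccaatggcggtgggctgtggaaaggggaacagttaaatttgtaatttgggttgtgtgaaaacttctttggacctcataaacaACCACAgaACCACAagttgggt
The windows had GC contents of 69.0% and 45.0%. The probe sets were not assigned to either start.

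No factor passed the test between times. From 24 h to 48 h in spheres, 0 of 9 factors and 0 of 12488 genes (0%) were called by limma, with 1 factor and 1341 genes at an unadjusted p under 0.05. That factor was Cebpa, whose mean log2 level in spheres was 6.23 ± 0.10 at 24 h and 5.71 ± 0.34 at 48 h (SD, n = 3 each). The difference of -0.52 ± 0.19 (SE) had an adjusted p of 0.368, with 3 of 3 pairs lower at 48 h. Outside the spheres, 0 of 9 factors were called and 0 had an unadjusted p under 0.05, against a background of 0.336% (42 genes called). Klf4 outside averaged 8.36 ± 0.08 at 24 h and 8.05 ± 0.11 at 48 h (SD, n = 3 each), a difference of -0.31 ± 0.17 (SE, adjusted p = 0.541) with no overlap.

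A change of the in-sphere difference with time was called for 0 of 9 factors and 0 genes (0%) by limma, with 2 factors and 1534 genes at an unadjusted p under 0.05. The 2 factors were Cebpa and Cebpb. For Cebpa the change was -0.84 ± 0.27 (SE, n = 3 per group; 95% CI -1.42 to -0.26; adjusted p = 0.243). Klf4 gave 0.50 ± 0.23 (95% CI -0.0050 to 1.01; adjusted p = 0.411). Other counts of genes called between times were 15 in spheres, 158 outside and 65 for the change when the replicate number was a block, and no factor was among them.

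The order of the 4 group means was the same for Cebpa and Spi1, with the lowest level in spheres at 48 h, then in spheres at 24 h, outside at 24 h and outside at 48 h. Klf4 ran through the same groups in the opposite order. The neighbours in these orders that come from the same compartment did not pass the test, as given above for Cebpa in spheres and for Klf4 outside. For Spi1 those differences were -0.13 ± 0.15 in spheres and 0.14 ± 0.15 outside (SE, adjusted p = 0.787 and 0.793).

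Relatives and partners of the 9 factors were examined as a list of 34 genes, of which 31 had a probe set and 30 were tested. In spheres 5 were higher and 12 lower at 24 h (56.7% called, beside 29.4% of all genes tested). At 48 h, 6 were higher and 12 lower (60% called, beside 37.5%). The median log2 differences were -0.36 at 24 h and -0.28 at 48 h, beside -0.0068 and -0.10 over all genes tested. Leaving out 1 array at a time gave 4 to 5 higher and 8 to 16 lower at 24 h and 5 to 6 higher and 10 to 14 lower at 48 h. Spic, an ETS relative of PU.1 known from iron-recycling macrophages, was lower, with a log2 difference of -2.56 ± 0.32 at 24 h (SE, n = 3 per group; adjusted p = 1.16e-04) and -3.02 ± 0.32 at 48 h (adjusted p = 2.23e-05). Runx3, a paralogue of Runx1, was higher, with log2 differences of 2.14 ± 0.23 and 2.10 ± 0.23 (adjusted p = 3.73e-05 and 2.62e-05). Among the C/EBP relatives, Cebpd, which responds to inflammatory signals, was lower, with log2 differences of -1.05 ± 0.18 and -1.10 ± 0.18. Ets2, an ETS factor, was higher, with log2 differences of 0.91 ± 0.16 and 1.41 ± 0.16. The small MAF genes, whose products lack an activation domain, divided. Maff was higher, with log2 differences of 0.74 ± 0.22 and 1.15 ± 0.22 and Mafg was lower, with log2 differences of -0.81 ± 0.14 and -1.10 ± 0.14. The 24 h call of Maff was lost without replicate 2 or 3 in spheres or replicate 2 or 3 outside at 24 h (adjusted p = 0.0622, 0.0927, 0.0832 and 0.0812).

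Cbfb, the partner of the RUNX factors, was higher by a log2 difference of 0.49 ± 0.11 at 24 h and 0.67 ± 0.11 at 48 h (SE, n = 3 per group). Of the AP-1 genes, Jun was lower, with a log2 difference of -1.52 ± 0.22 at 24 h (adjusted p = 3.38e-04), while its 48 h difference was -0.27 ± 0.22 (adjusted p = 0.365). Batf, the closest relative of Batf3 on the list, was lower, with a log2 difference of -0.89 ± 0.17 at 24 h (adjusted p = 0.00196) and gave -0.43 ± 0.17 at 48 h (adjusted p = 0.0626). At 48 h the Batf call was made without replicate 1 in spheres at 24 h (adjusted p = 0.0458) and without replicate 2 in spheres at 48 h (adjusted p = 0.0351). The change of the in-sphere difference with time was called for 0 genes of this list.

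Of 19 other factors that direct myeloid fates, all tested, 3 were higher and 11 lower in spheres at 24 h. At 48 h, 4 were higher and 6 lower. The shares called were 73.7% and 52.6%, beside 29.4% and 37.5% of all genes tested. Median log2 differences were -0.56 and -0.39, beside -0.0068 and -0.10 over all genes tested. Without 1 array at a time these counts were 3 higher and 8 to 11 lower at 24 h, and 2 to 4 higher and 5 to 8 lower at 48 h, 2 without replicate 1 outside at 24 h, in spheres at 48 h or outside at 48 h. Pparg, the lipid-responsive receptor of alveolar macrophages, was lower, with a log2 difference of -1.76 ± 0.19 at 24 h (SE, n = 3 per group; adjusted p = 4.69e-05) and -2.62 ± 0.19 at 48 h (adjusted p = 2.00e-06). Nr1h3, which encodes the oxysterol receptor LXRα, was lower, with log2 differences of -1.02 ± 0.22 and -2.40 ± 0.22. Id3, an inhibitor of helix-loop-helix factors, was lower, with log2 differences of -2.15 ± 0.21 and -1.61 ± 0.21. Myc was higher, with log2 differences of 1.20 ± 0.22 and 0.88 ± 0.22 (adjusted p = 0.00145 and 0.00725). Myb, a progenitor factor, was lower, with a log2 difference of -1.26 ± 0.27 at 24 h, with 2 of 3 in-sphere arrays above the filter level.

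Genes known as targets of several of the factors were listed by factor, and targets did not all move in the direction of their factor's own difference. The lists share genes with each other, and their counts are descriptions to be set beside the 29.4% and 37.5% of all genes called. For PU.1, whose gene was lower at 48 h, 3 targets were higher and 6 lower of 18 tested at 24 h, and 4 were higher and 5 lower at 48 h, with median log2 differences of -0.32 and -0.26. With 1 array left out, 3 to 4 were higher and 4 to 9 lower at 24 h, 4 without replicate 1 in spheres or replicate 1 outside at 24 h and 9 without replicate 3 in spheres at 24 h. The Fc receptor gene Fcgr2b was higher by a log2 difference of 1.33 ± 0.13 at 24 h and 2.04 ± 0.13 at 48 h (SE, n = 3 per group), and the scavenger receptor gene Msr1 by 1.40 ± 0.20 and 1.06 ± 0.20. Btk, a tyrosine kinase gene, was lower at 24 h (-1.21 ± 0.28) with a 48 h difference of -0.44 ± 0.28 (adjusted p = 0.252). Ncf4, of the phagocyte oxidase, was lower, with log2 differences of -0.70 ± 0.13 and -0.49 ± 0.13. Cd14, the lipopolysaccharide co-receptor gene, was higher, with log2 differences of 0.54 ± 0.13 and 1.09 ± 0.13. Fcgr1, another Fc receptor gene, gave 0.99 ± 0.40 (adjusted p = 0.0840) at 24 h and was higher by a log2 difference of 1.19 ± 0.40 (adjusted p = 0.0338) at 48 h, a call lost without replicate 2 or 3 in spheres or replicate 1 or 2 outside at 48 h (adjusted p = 0.0912, 0.0858, 0.0790 and 0.131). At 24 h Fcgr1 was called without replicate 3 outside at 24 h (adjusted p = 0.0177) and with the replicate block (adjusted p = 0.0286). Csf2rb, a shared cytokine receptor subunit gene, was lower, with log2 differences of -0.52 ± 0.17 (adjusted p = 0.0361) and -0.79 ± 0.17 (adjusted p = 0.00290). Its 24 h call was lost without replicate 1 in spheres, replicate 1 outside or replicate 2 outside at 24 h (adjusted p = 0.126, 0.140 and 0.0740). Csf1r, the CSF-1 receptor gene that PU.1 activates, gave -0.18 ± 0.21 (adjusted p = 0.603) and -0.32 ± 0.21 (adjusted p = 0.259).

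Of 19 C/EBP targets tested, 4 were higher and 8 lower at 24 h and 5 were higher and 8 lower at 48 h. Of these, 8 are also granulocyte markers, of which 0 were higher and 5 lower at 24 h and 1 was higher and 5 lower at 48 h. Among the 11 others, 4 were higher and 3 lower at each time. With 1 array left out, 4 to 7 targets were higher and 8 lower at 24 h, 7 without replicate 1 in spheres at 24 h, and 5 to 6 were higher and 8 lower at 48 h. With the replicate block, 7 were higher at 24 h and 8 at 48 h. The granule protein genes Camp and Ltf were lower, Camp with differences of -2.17 ± 0.43 and -2.99 ± 0.43 and Ltf with -1.95 ± 0.32 and -3.09 ± 0.32 at 24 h and 48 h (SE, n = 3 per group). Csf3r, the G-CSF receptor gene, was lower, with log2 differences of -2.14 ± 0.30 and -2.54 ± 0.30. Fabp4, a lipid carrier gene, was lower, with log2 differences of -1.79 ± 0.24 and -3.07 ± 0.24. Arg1, the arginase gene of alternative activation, was higher, with log2 differences of 4.22 ± 0.93 and 4.83 ± 0.93. Its outside arrays varied widely, with 8.41 ± 1.63 at 24 h and 7.79 ± 2.23 at 48 h (SD, n = 3 each), while in-sphere arrays gave 12.63 ± 0.27 and 12.61 ± 0.16.

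KLF4 and KLF2 targets numbered 13, all tested, with 3 higher and 4 lower at 24 h and 6 higher and 4 lower at 48 h, so that 10 of 13 were called at the later time. Without replicate 3 in spheres at 48 h, 4 were higher and 4 lower at that time. Arg1 and Pparg, given above, are also on this list. Ccl2, a monocyte chemokine gene, was higher by log2 differences of 1.46 ± 0.16 at 24 h and 2.26 ± 0.16 at 48 h (SE, n = 3 per group). Chil3, a chitinase-like gene of alternative activation, was lower, with log2 differences of -1.09 ± 0.24 and -1.64 ± 0.24. Retnla, of the same programme, was below the filter level on all 3 in-sphere arrays at 24 h, so its level there was at least 1.88-fold lower, with the filter level standing for the spheres.

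Of 14 IRF8 and IRF5 targets tested, 1 was higher and 0 lower at 24 h, and 4 were higher and 1 lower at 48 h. Leaving out 1 array gave 1 to 2 higher at 24 h and 4 to 5 higher and 0 to 1 lower at 48 h. The 2 higher at 24 h were found without replicate 3 outside at 24 h or replicate 1 in spheres at 48 h, and the 0 lower at 48 h without replicate 2 or 3 in spheres or replicate 1 outside at 48 h. Ctsc, a lysosomal protease gene, was higher by a log2 difference of 0.99 ± 0.11 at 24 h and 1.70 ± 0.11 at 48 h (SE, n = 3 per group). The chemokine gene Cxcl10 gave 0.57 ± 0.28 (adjusted p = 0.158) at 24 h and was higher by a log2 difference of 2.69 ± 0.28 (adjusted p = 2.15e-05) at 48 h. Il6 gave -0.06 ± 0.37 (adjusted p = 0.934) and was higher by a log2 difference of 1.75 ± 0.37 (adjusted p = 0.00296) at 48 h. Ciita, the activator of MHC class II genes, was the gene called lower at 48 h (adjusted p = 0.0228). It was below the filter level on all 3 in-sphere arrays, so its level there was at least 1.12-fold lower, and the call was lost without replicate 2 or 3 in spheres or replicate 1 outside at 48 h (adjusted p = 0.0610, 0.0693 and 0.0824). The mean log2 level of Cxcl10 was 9.20 in spheres and 8.63 outside at 24 h, and 9.18 and 6.48 at 48 h. For Il6 the means were 6.80 in spheres and 6.86 outside at 24 h, and 5.77 and 4.02 at 48 h. Outside means of Cxcl10 and Il6 were thus lower at 48 h than at 24 h, and neither in-sphere mean was higher. From 24 h to 48 h, 0 genes of the list were called higher and 2 lower outside, and 0 were called in spheres. A change of the in-sphere difference was called for 0 genes of the list.

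Of 9 BATF3-dependent dendritic cell genes tested, 0 were higher and 2 lower at 24 h and 0 were higher and 3 lower at 48 h, and Cd24a, a surface glycoprotein gene, was lower, with log2 differences of -2.29 ± 0.25 and -2.90 ± 0.25 (SE, n = 3 per group). Id2, an inhibitor of helix-loop-helix factors that is also among the fate factors above, was lower, with log2 differences of -0.54 ± 0.13 and -0.52 ± 0.13. Cadm1, an adhesion molecule gene, gave -0.45 ± 0.39 (adjusted p = 0.445) at 24 h and was lower, with a log2 difference of -1.55 ± 0.39 (adjusted p = 0.00771), at 48 h. The shares of this list called were 22.2% at 24 h and 33.3% at 48 h, beside 29.4% and 37.5% of all genes tested. Xcr1, the defining receptor gene of type 1 dendritic cells, exceeded the filter level on 0 arrays. Itgae exceeded it on 4 of 12 arrays, Cd8a on 8 and Flt3 on 11, and none of them was called at either time. A separate list of conventional dendritic cell markers, with 6 measured and 5 tested, had 1 higher and 0 lower in spheres at each time. Its summed signal was 653 to 1006 in spheres and 203 to 285 outside at 24 h. At 48 h it was 708 to 879 in spheres and 128 to 286 outside. A linear sum follows the brightest genes of a list. The median log2 differences of the 5 tested were -0.16 at 24 h and 0.11 at 48 h, beside -0.0068 and -0.10 over all genes tested. Flt3 and Zbtb46, both on this list, were not called at either time. Their mean log2 levels at 24 h were 2.99 and 2.83 in spheres and 3.10 and 2.99 outside, near the filter level of 2.77.

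**Figure D4:**
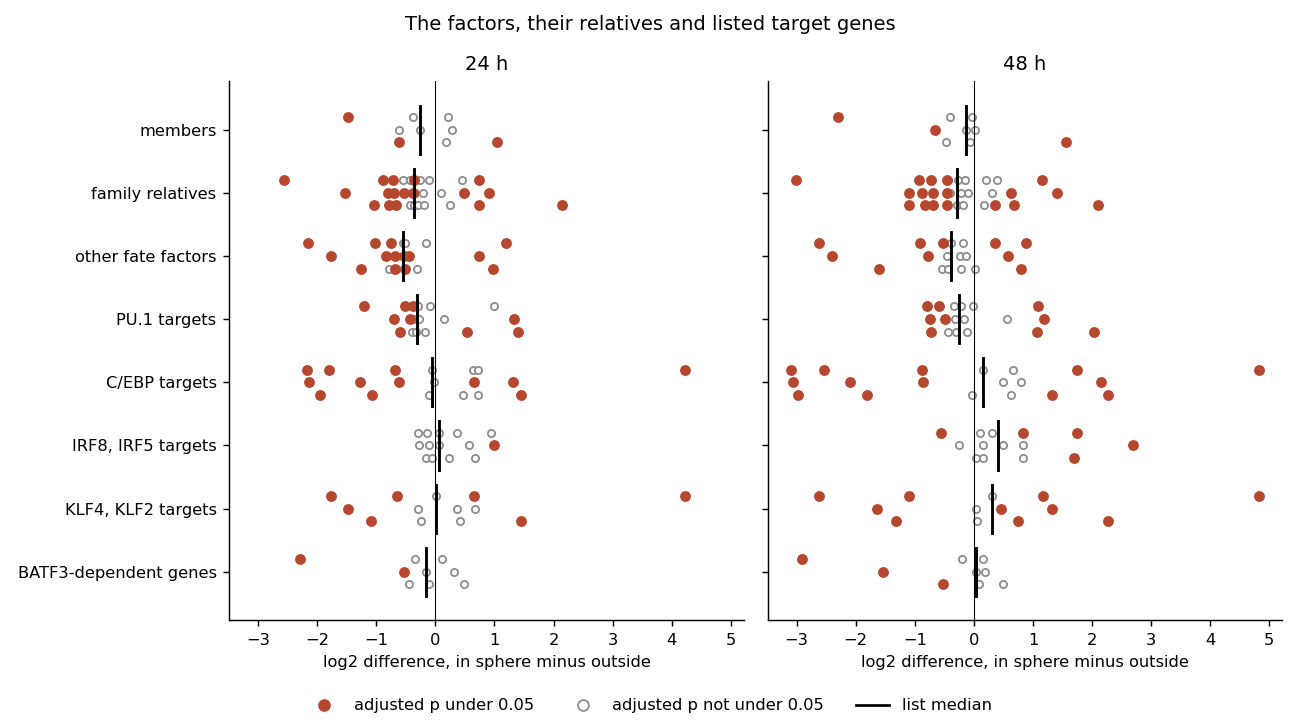
In-sphere minus outside difference (log2) of each tested gene in the lists around the factors, at 24 h in one panel and 48 h in the other. Points are genes, filled where the adjusted p was under 0.05, and black bars are list medians, which for relatives and partners are -0.36 and -0.28.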

How the data were processed

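Per the submitters' processing notes, the authors ran RMA in Affymetrix Expression Console 1.1, and each deposited value is the log2 expression of a probe set. RMA normalises the arrays to a shared distribution, so a difference in total RNA per cell is removed and differences of dim probe sets are compressed. The deposited values of replicate 3 in spheres at 48 h departed from it. That array had a median of 3.03, while the medians of the others lay between 3.12 and 3.17. The range of the values gave the log base, and scanner files were not used here. Of 45141 probe sets, 28898 carry 1 gene symbol in the platform annotation. The brightest probe set of each of 17097 genes was kept, and 12488 genes exceeded 2.77, the 40th percentile of all values, on at least 3 arrays.

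All 12 arrays entered 1 model of group means, fitted with limma 3.58.1 in R 4.3.3 and eBayes (8 residual and 4.09 prior degrees of freedom), checked on simulated data. The number of arrays limits the precision. Probe sets were also fitted one by one, with their own adjustment. Alternatives covered the filter, the choice of probe set, array weights, scaling, moderation, the replicate block and leaving out each array. Counts over the listed genes without 1 array or with the block were added after seeing the data.

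The factors and the gene lists were chosen with earlier results of these data known. Listed genes were named by a rule, up to 4 called genes with the largest differences per list and time, with at least 1 in each direction, and called relatives or partners of the factors could be added. Listed genes outside the tested table were not analysed here, and 1 target list is not reported here.

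Replicate numbers mark independent experiments that gave both in-sphere and outside cells, per the series' design text, and so pair the samples. In the check, 12 of 18 same-numbered pairs of arrays had deviations correlated above 0.1 (range 0.0215 to 0.473). The highest values, 0.471, 0.473 and 0.419, joined outside arrays at 24 h with outside arrays at 48 h. In-sphere with outside arrays gave 0.0215, 0.120 and 0.0813 at 24 h and 0.117, 0.0417 and 0.112 at 48 h. Promoter windows are those of RefSeq for GRCm38.p6.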

Additional observations from a re-analysis of the deposited data

How the results depend on the processing

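The 24 h and 48 h in-sphere calls of Cebpa and Klf4 and the 48 h call of Spi1 were made under all 24 alternatives, and the 24 h call of Cebpb under 23. Over the member values, 1031 of 1071 kept direction and side of the threshold, 12 became called, 1 lost its call and 27 turned direction. The replicate block changed no call of a factor and gave 3 factors called at 24 h and 3 at 48 h. Genes called in spheres against outside ranged from 2930 to 4879 at 24 h and 3811 to 5958 at 48 h. Factors called at 24 h ranged from 2 to 5, with 5 under array weights and 3 to 5 with 1 array left out. Genes called between times in spheres (0) were 15 with the replicate block, 4 without a filter, 4 with a stricter filter, 9 with mean probe sets, 9 with an intensity trend, 115 with array weights, 13 with median-centred arrays, 2 after repeated quantile normalisation and 0 to 10 with 1 array left out. Genes called between times outside (42) were 158 with the block, 88 with the trend, 286 with array weights, 124 after quantile normalisation, 1 without moderation, 1 with only the 2 groups compared and 0 to 68 with 1 array left out. Genes called for the change (0) were 65 with the block, 1 with mean probe sets, 5 with the trend, 130 with array weights and 0 to 2 with 1 array left out. No factor was called in these 3 comparisons under any alternative.

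Differences that turned direction were small and did not pass the test. With the most variable probe set, Runx1 in spheres against outside at 24 h was -0.054, and between times in spheres Cebpb was -0.10 and Klf4 -0.092. With array weights the Batf3 change was 0.063. Irf5 between times outside was -0.013 with median-centred arrays and -0.020 after quantile normalisation, which also gave 0.022 for Irf8 and 0.0070 for Runx1 at 48 h. With 1 array left out, in-sphere differences at 48 h ranged from -0.28 to 0.29 for Batf3 and from -0.081 to 0.0016 for Irf8. Between times in spheres the ranges were -0.041 to 0.35 for Maf, -0.25 to 0.031 for Spi1, -0.30 to 0.068 for Irf8 and -0.37 to 0.029 for Irf5. Between times outside they were -0.21 to 0.077 for Maf, -0.15 to 0.11 for Irf5 and -0.43 to 0.14 for Batf3, and for the change -0.019 to 0.38 for Maf, -0.37 to 0.029 for Irf5 and -0.45 to 0.11 for Batf3. The cause of these shifts was not tested.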

Other observations

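The genes whose log2 levels followed each factor most closely over the 12 arrays were ranked by Pearson's r among the genes tested. Uncharacterised gene models were passed over. All 12 arrays share the division into in-sphere and outside cells, so these values describe likeness only. Cebpa was followed most closely by Plekhm1 (r = 0.994), a gene of lysosome positioning and fusion, and Atp6v1b2 (r = 0.992), a subunit of the vacuolar proton pump. Plekhm1 was lower in spheres, with log2 differences of -1.42 ± 0.18 at 24 h and -2.12 ± 0.18 at 48 h (SE, n = 3 per group). Klf4 was followed by Rfx5 (r = 0.978), a factor of MHC class II genes, and Socs3 (r = 0.971), an inhibitor of cytokine signalling. Socs3 was higher in spheres, with log2 differences of 1.67 ± 0.15 and 1.82 ± 0.15. Spi1 was followed by the TNF receptor gene Tnfrsf1b (r = 0.981) and by Lrrfip2 (r = 0.979).

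For Cebpb the closest were Tsc22d3 (r = 0.946), a glucocorticoid-induced gene, and Ramac (r = 0.928). Irf5 was nearest to Oas3 (r = 0.929), an interferon-stimulated gene, and Znfx1 (r = 0.926), and Irf8 was nearest to Pou6f1 (r = 0.932). Maf was closest to Ermard (r = 0.946), Runx1 to Plod3 (r = 0.946) and Batf3 to Smarca2 (r = 0.867).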
